A study of Mus musculus with 40 samples.

Results

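The data described here are the 16 p21-null tumours of an RNA-seq series of 40 mouse mammary tumours, chosen by their titles: 10 tumours of 9 mice given doxorubicin and 6 tumours of 5 untreated mice. All the mice carried the MMTV-Wnt1 transgene, in which a mammary tumour virus promoter drives the Wnt1 ligand, and the tumours arose spontaneously. The p21-null mice lack p21, the product of Cdkn1a; which part of the gene the allele lacks is not stated in the labels, nor is the sex or age of the mice. Doxorubicin was injected intraperitoneally at 4 mg/kg a day for 5 days and the tumours were taken 24 h after the last injection, while the untreated group received no drug per the labels. The other groups of the series, used only where a difference from the p21-null response was tested, were untreated and doxorubicin-treated tumours of p53-null mice (4 and 5 mice) and of mice wild-type for Trp53 and Cdkn1a (6 and 5 mice), all with the same transgene and the same dosing. Libraries of both null genotypes were made with the TruSeq RNA v2 kit and wild-type libraries with the TruSeq Stranded Total RNA kit, so that library kit and wild-type genotype cannot be told apart in any comparison with those tumours. Mice are named below by the number in their titles after the letter m; the 2 tumours of m4116 (untreated) and the 2 of m4439 (treated) were averaged and counted as 1 mouse each, on the assumption that a shared number marks a shared mouse.

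Doxorubicin is an anthracycline that traps topoisomerase II on DNA and leaves double-strand breaks. Breaks activate the kinases ATM and ATR and through them p53, a transcription factor that switches on genes for cell-cycle arrest, apoptosis and repair. Cdkn1a is one of its best known targets: p21 binds cyclin and cyclin-dependent kinase complexes, keeps the pocket proteins RB1, RBL1 and RBL2 unphosphorylated, and through them holds down the E2F-driven genes of S phase and, through the DREAM complex, the genes of mitosis. A tumour without p21 therefore keeps p53 and the rest of its target genes but lacks this link to the cell-cycle genes.

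Each tumour had 1 table of gene levels in TPM, a length-corrected share of all transcripts. Levels are given on a protein-coding scale, that is, TPM rescaled so that the nuclear protein-coding genes of every tumour have the same sum. Values of a group are the mean ± SD over mice (5 untreated, 9 treated) unless stated otherwise, and a pair of levels joined by to gives the untreated and then the treated mean. Fold changes are differences of mean log2(value + 1) with their standard error, which understates the change of genes with low levels. A gene was called where limma's moderated test gave a Benjamini-Hochberg adjusted p under 0.05 over the 13673 genes tested. TPM carry no sequencing depth, so no counting interval can be given. In the p21-null tumours nuclear protein-coding genes held 81.93% to 86.27% of TPM and 21982 to 23746 genes had a value above 0, with overlapping ranges in both groups. Treated and untreated mice separated on the first principal component (30.5% of the variance), on which treated mouse m4533 lay farthest from the untreated mice. Epithelial markers were abundant in both groups (Epcam 536 ± 58.3 and 487 ± 45, Krt8 953 ± 246 and 826 ± 123), as the mammary tumour label implies.

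After doxorubicin 767 genes rose (5.61% of those tested) and 662 fell (4.84%), of which 361 rose and 76 fell by at least 2-fold. For 441 genes (3.23%) every treated mouse lay above every untreated mouse, and for 168 (1.23%) every treated mouse lay below. These shares are the background for the list counts below. The count of falls depended on single mice: it was 241 without untreated mouse m4116, 262 without m4536, 265 without m4539, 423 without treated mouse m4534, 439 without m4577 and 1014 without m4380. The count of rises stayed between 566 and 857 over the same 14 removals. The median change of all genes tested was -0.10 log2 units. Of the 181 genes that the naming rule picked, 110 were called. An exact two-sided permutation test over the 14 mice gave p under 0.05 for all 110, which their choice as called genes on the same mice all but fixed; its smallest possible p is 0.0004995.

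Cdkn1a itself, the gene of the null label, was present and rose. Its level was 78.4, 53.2, 74.3, 33.4 and 59.9 in the untreated mice and ran from 224 to 328 (median 279) in the treated mice. The groups did not overlap, and the mean went from 59.8 ± 18 to 276 ± 35.9 (log2 fold change 2.24 ± 0.16, adjusted p = 3.78e-07; exact permutation p = 0.0004995, the smallest possible). The tables hold 1 value per gene, so these reads cannot be placed within the gene, and the level therefore does not check the label. Trp53 did not pass the test (-0.24 ± 0.12, adjusted p = 0.187), with 126, 119.6, 119.7, 95.2 and 128 in the untreated mice and values from 66.9 to 114 (median 102) in the treated mice. Wnt1, the transgene's product, did not pass either (-0.33 ± 0.25, adjusted p = 0.419); reads of the transgene and of the native gene cannot be told apart here.

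Many p53 target genes rose together. Of 57 target genes tested from 4 lists, 32 rose, 0 fell and 25 did not pass, against a background of 5.61% of all genes rising. Their median change was 0.72, against -0.10 for all genes tested. In 29 of the 57 every treated mouse lay above every untreated mouse, against 3.23% of all genes tested. The median over the 57 genes, relative to the untreated mean, lay from 0.54 to 0.82 in the 9 treated mice and from -0.15 to 0.15 in the 5 untreated mice, so every treated mouse stood apart.

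Among the feedback regulators of p53, 4 of 10 rose. Ccng1, cyclin G1, went from 52, 42.7, 40.3, 46.4 and 36.6 in the untreated mice to values from 159 to 287 (median 199.8) in the treated mice. The groups lay far apart (2.21 ± 0.13, adjusted p = 6.30e-08). Trp53inp1, a stress-induced cofactor of p53, rose (2.12 ± 0.20, adjusted p = 3.46e-06), as did Mdm2, the ubiquitin ligase that degrades p53 (33.8 to 71.1; 1.05 ± 0.13, adjusted p = 4.27e-05). The Mdm2 call was lost when all 6 groups of the series were fitted together (adjusted p = 0.0593). Zmat3, an RNA-binding protein, also rose (1.29 ± 0.18, adjusted p = 1.86e-04).

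Of the apoptotic targets 12 of 15 rose. Bax, the pore-forming effector of the mitochondrial pathway, stood at 231, 206, 160.4, 191 and 154 in the untreated mice and from 413 to 511 (median 475) in the treated mice, with no overlap (1.33 ± 0.09, adjusted p = 3.06e-07). The BH3-only genes that act upstream of it rose as well: Bbc3, which encodes PUMA, from 12.8 to 40.3 (1.61 ± 0.14, adjusted p = 2.32e-06), and Pmaip1, which encodes NOXA, from 4.95 to 24.2 (2.09 ± 0.21, adjusted p = 7.73e-06). Eda2r, a death-associated receptor of the TNF receptor family, rose from 2.43 to 19.1 (2.51 ± 0.21, adjusted p = 1.30e-06), and Ei24 from 86.2 to 175 (1.01 ± 0.09, adjusted p = 1.93e-06). In the wider list of BCL2 family genes and inhibitors of apoptosis, 4 of 19 rose and 0 fell (1 without m4380). They were Bax, Bbc3, Pmaip1 and Bcl2a1b (1.48 ± 0.22, adjusted p = 4.38e-04), an anti-apoptotic member with near-identical copies, so that the share of reads belonging to it is uncertain.

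Of the arrest and repair targets 10 of 17 rose. Beside Cdkn1a these included Rps27l, a ribosomal protein paralogue (656 to 1257; 0.94 ± 0.08, adjusted p = 1.35e-06), Btg2, an antiproliferative cofactor of mRNA deadenylation (24.1 to 68.1; 1.46 ± 0.13, adjusted p = 2.08e-06), and Psrc1, a protein of the mitotic spindle (102 to 269; 1.43 ± 0.15, adjusted p = 8.88e-06). Gtse1 and Ckap2, named here after their values were seen because they too encode microtubule-associated proteins of dividing cells, rose by 1.47 ± 0.17 and 1.41 ± 0.21. Gadd45a, a classical p53 target that binds PCNA, did not pass (-0.22 ± 0.13, adjusted p = 0.279). Of the metabolic and secreted targets 6 of 15 rose. Gdf15, a secreted stress cytokine of the TGF-beta family, went from 3.72, 1.81, 2.96, 1.86 and 2.44 to values from 16.6 to 34.8 (median 21.8) and had the largest rise of the p53 target genes (2.83 ± 0.18, adjusted p = 1.27e-07). Cpt1c, a carnitine palmitoyltransferase homologue (1.71 ± 0.14), Ddit4l (1.98 ± 0.18) and Sesn2, a sestrin that restrains mTORC1 (1.28 ± 0.13), also rose without overlap. Gls2, which encodes a glutaminase, pointed the other way without passing the test (-0.74 ± 0.25, adjusted p = 0.0684), and it passed as a fall under 4 of the alternative settings.

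**Figure D1:**
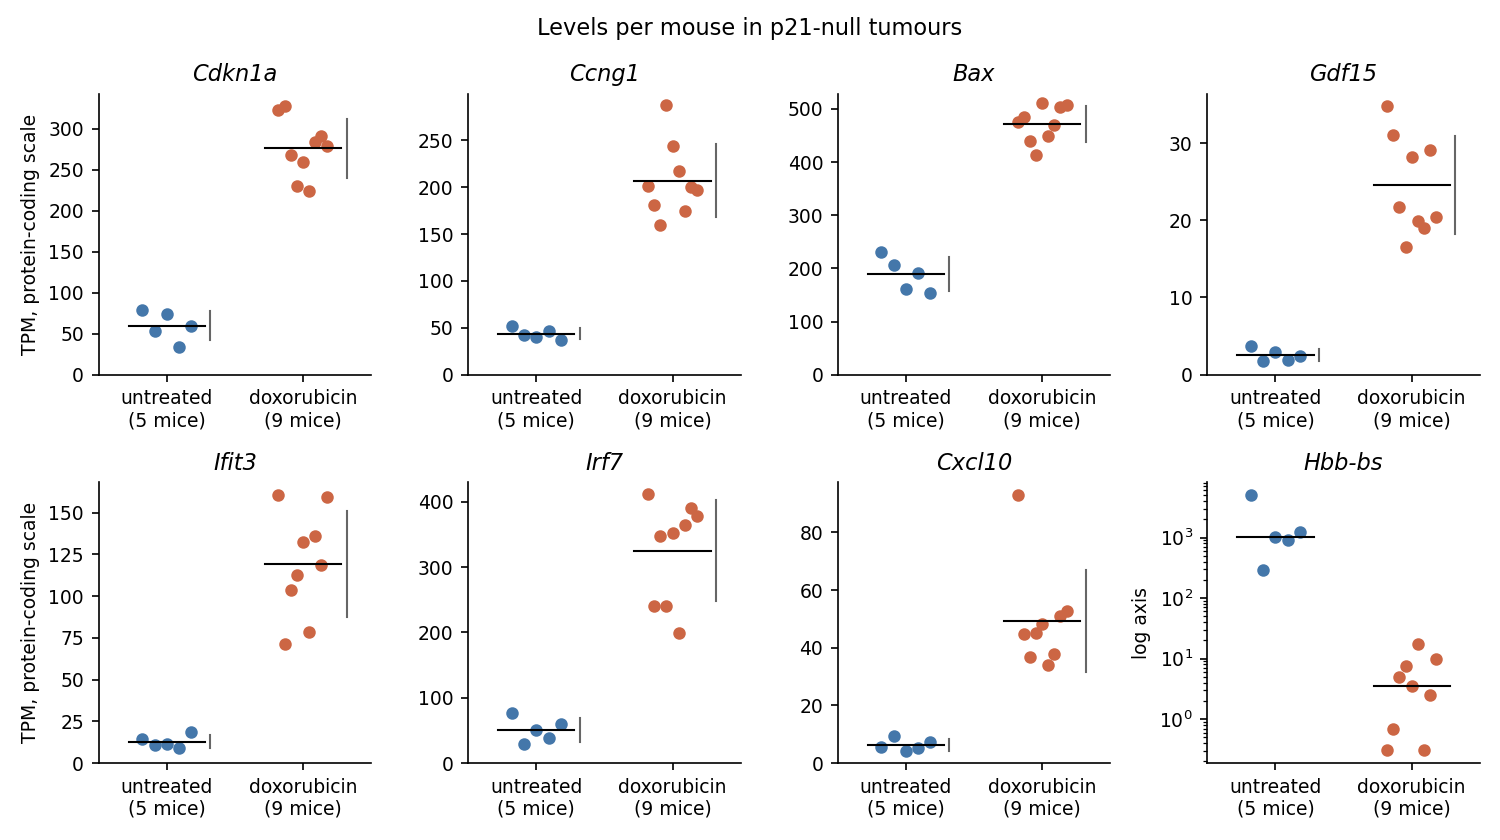
Level of 8 genes in each p21-null mouse (points; TPM on the protein-coding scale, linear axes except for Hbb-bs, whose axis is logarithmic), untreated in blue and doxorubicin in orange. Horizontal lines are group means and vertical grey lines ± 1 SD, except for Hbb-bs, where the line is the median; in all 8 panels the groups do not overlap, with Cdkn1a at 33.4 to 78.4 untreated and 224 to 328 treated.

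A match to the core of a p53 site was looked for in the promoter windows of RefSeq genes (GRCm38.p6), which run from 250 bases before to 50 bases after each start. The letters searched were CATG, 6 bases of any kind and CATG again, which read the same on both strands and make up the centres of 2 adjoining p53 half-sites. They occurred in the windows of 41 of 10696 (0.383%) genes tested and of 10 of 587 (1.7%) genes that rose. Among genes whose response was larger than in p53-null tumours, a test given below, 0 of 64 with a window held them. Of the p53 target genes with a window, 1 of 47 (2.13%) held a match, which was Cdkn1a. It is shown because Cdkn1a is the gene of the null label, from the plus strand of chr17:29090901-29090974 with the match in capitals, which begins 48 bases before the listed start:
Cdkn1a: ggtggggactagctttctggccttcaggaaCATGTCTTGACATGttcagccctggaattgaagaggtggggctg
A match in a window is a description of its letters and not a site.

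The question the design poses next is how this response differs from that of tumours without p53. The difference was tested directly in the 4 groups of both null genotypes, which share a library kit: the p21-null response was larger for 76 of 14139 genes (0.538%) and smaller for 2 (0.0141%). Of the 57 p53 target genes 19 had a larger response in p21-null tumours and 0 a smaller one. Their median change was 0.04 in p53-null tumours against 0.72 in p21-null tumours. Bax changed by -0.26 in p53-null tumours (difference 1.60 ± 0.15, adjusted p = 1.56e-06), Bbc3 by -0.30 (difference 1.91 ± 0.21, adjusted p = 8.38e-06) and Gdf15 by 0.14 (difference 2.70 ± 0.26, adjusted p = 1.56e-06). Ccng1 changed by 0.49 (difference 1.71 ± 0.23, adjusted p = 1.95e-04). For Cdkn1a the p53-null change was 0.37 ± 0.39 and the difference did not pass (1.87 ± 0.51, adjusted p = 0.153); the same held for Mdm2 (1.41 ± 0.66, adjusted p = 0.461), Trp53inp1 (1.32 ± 0.38, adjusted p = 0.202) and Ddit4l (0.85 ± 0.46, adjusted p = 0.501).

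Most of the largest differences from the p53-null response lay outside these lists. Sncg, which encodes gamma-synuclein, went from 4.37, 7.99, 2.53, 3.42 and 4.82 in untreated p21-null mice to values from 24.4 to 252 (median 75.8) in treated ones. This was the largest rise of the response by the naming rule (3.92 ± 0.43, adjusted p = 2.61e-05). Its change in p53-null tumours was -0.97 (difference 4.89 ± 0.67, adjusted p = 2.34e-04), and in wild-type tumours 3.30. Cox6b2, a cytochrome c oxidase subunit known from testis, went from 19.9, 30.7, 16.1, 18 and 13.5 to values from 111 to 269 (median 197) (3.28 ± 0.20, adjusted p = 1.21e-07), with -1.30 in p53-null tumours (difference 4.58 ± 0.39, adjusted p = 3.02e-07) and 2.97 in wild-type tumours. Robo3, a receptor of axon guidance (0.39 to 8.47; 2.72 ± 0.20, adjusted p = 4.60e-07), and Plcd4, a phospholipase C (0.755 to 8.56; 2.44 ± 0.16, adjusted p = 1.27e-07), changed by 0.14 and 0.08 in p53-null tumours, with differences of 2.58 ± 0.30, adjusted p = 2.45e-05 and 2.37 ± 0.25, adjusted p = 5.99e-06. Hmga1b was also among the 6 largest differences (4.03 ± 0.90, adjusted p = 0.0384), but its p21-null change was 0.05 ± 0.26 and it shares reads with Hmga1, so the value is uncertain; the call was lost under pseudocount 5, in the fit of all 6 groups, with tumours kept separate and without most single mice.

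Wild-type values rest on a smaller part of each library. Nuclear protein-coding genes held 8.93% to 10.54% of TPM in untreated and 7.72% to 10.73% in treated wild-type tumours before rescaling, against 81.93% to 86.27% in p21-null tumours. The difference from the wild-type response, in which the kits differ, was called for 8 genes as larger (0.0544%) and 3 as smaller (0.0204%) of 14696 tested. None of the 57 p53 target genes was among them (0 by limma, smallest adjusted p 0.346): their median change was 0.58 in wild-type and 0.72 in p21-null tumours. Bax rose by 1.33 in wild-type and 1.33 in p21-null tumours (difference 0.01 ± 0.13, adjusted p = 0.986), and Cdkn1a by 2.66 and 2.24 (difference -0.43 ± 0.34, adjusted p = 0.596). A difference that misses the threshold does not show that the responses were the same. Of the 8 genes with a larger p21-null response, 7 were replication-dependent histone genes, among them Hist1h2bc, which rose by 0.45 in p21-null and changed by -0.63 in wild-type tumours (difference 1.08 ± 0.18, adjusted p = 0.0119); many histone transcripts lack a poly(A) tail, and for these genes genotype and kit cannot be told apart. The call of this difference was lost in the fit of all 6 groups (adjusted p = 0.0611). The p21-null rise of Hist1h2bc itself was lost in that fit (adjusted p = 0.0706), with separate tumours (0.052), with the random block (0.0552) and without m4116, m4383 or m4539. With TPM as deposited 97 genes were larger. The remaining gene was Rab44, which encodes a large Rab GTPase.

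Rab44 lies on chromosome 17 (29114145 to 29148980, plus strand, GRCm38), 13417 bases beyond the end of Cdkn1a (29090976 to 29100727) on the same strand. In p21-null tumours it went from 31.4, 23.1, 30.6, 16.4 and 22.2 untreated to values from 70.7 to 108 (median 77.5) treated. The groups did not overlap (1.77 ± 0.15, adjusted p = 1.35e-06). Its change was 0.19 in p53-null tumours (difference 1.57 ± 0.26, adjusted p = 0.00168) and 0.03 in wild-type tumours (difference 1.73 ± 0.29, adjusted p = 0.0119), so that it was the 1 gene called in both differences by the naming rule. Both differences use the same 14 p21-null mice. Olfr1318, outside that rule and named here after its values were seen, was also called in both. Its differences had opposite signs, 1.04 ± 0.20 (adjusted p = 0.0124) against p53-null and -1.34 ± 0.23 (adjusted p = 0.0124) against wild-type tumours. Of the other genes tested within 150000 bases of Cdkn1a, Stk38 fell by 0.32 ± 0.09 (adjusted p = 0.0371), and Kctd20, Srsf3 and Cpne5 did not pass (adjusted p = 0.446, 0.238 and 0.692).

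**Figure D2:**
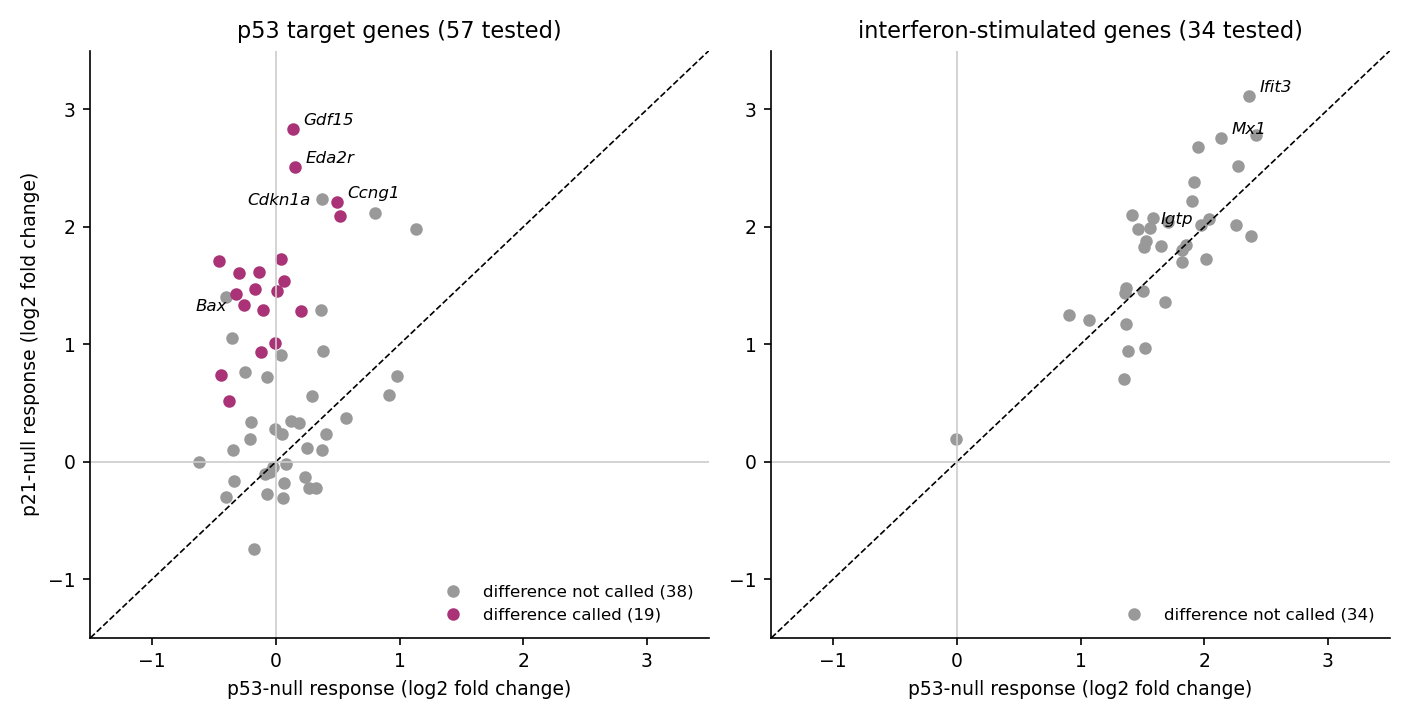
Doxorubicin response (log2 fold change) of each of 57 p53 target genes (left) and 34 interferon-stimulated genes (right) in p53-null tumours on the x axis and p21-null tumours on the y axis; the dashed line marks equal responses and purple points are the 19 genes whose difference was called. The called p53 targets sit above 0 on the y axis (Gdf15 at 0.14 on the x axis and 2.83 on the y axis). Their x values lie on both sides of 0, such as 0.49 for Ccng1 and -0.46 for Cpt1c. The interferon-stimulated genes have medians of 1.66 and 1.86 and no called difference, which does not show equal responses.

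No gene of the G1/S or the G2 and mitosis list passed the test in the p21-null tumours. Of 32 genes of G2 and mitosis 0 rose and 0 fell by limma, also 0 at an unadjusted p under 0.05, and their median change was 0.12. Of 30 genes of G1/S and replication 0 rose and 0 fell (1 at an unadjusted p under 0.05), with a median of -0.19. Mki67, the proliferation antigen, was 39.8, 43.6, 61, 37.4 and 61.5 in the untreated mice and ran from 13.1 to 59.3 (median 37) in the treated mice. The groups overlapped (-0.46 ± 0.26, adjusted p = 0.263). Ccnb1, the cyclin of mitotic entry, was 45.2, 48.7, 78.3, 48.8 and 74.2 untreated and ran from 25.1 to 173 (median 83.2) treated (0.46 ± 0.31, adjusted p = 0.358), and Ube2c, an enzyme of the anaphase-promoting complex, went from 126 to 209.9 (0.65 ± 0.31, adjusted p = 0.196). Uhrf1 and Mcm2, of DNA methylation maintenance and replication licensing, changed by -0.61 ± 0.28 and -0.35 ± 0.23 (adjusted p = 0.176 and 0.34).

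In these lists treated mouse m4533 stood apart from the other treated mice. In mouse m4533 the median over the G2 and mitosis genes was -1.22 log2 units from the untreated mean and that over the G1/S genes -1.12, while in the other 8 treated mice they ran from -0.16 to 0.76 and from -0.48 to 0.29. Without mouse m4533, Ube2c (0.85, adjusted p = 0.0171), Cdc20 (0.57, adjusted p = 0.0397) and Ccnb1 (0.66, adjusted p = 0.0445) rose and the median of the 32 genes was 0.29. The same mouse had the highest neutrophil marker median, 3.06 against 0.17 to 1.62 in the other treated mice. Its p53 target median, 0.68, lay among those of the other treated mice.

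In wild-type tumours all 32 G2 and mitosis genes and all 30 G1/S genes had a negative change, with medians of -0.73 and -0.59, and in p53-null tumours the medians were 0.04 and -0.13. The test of the difference between the p21-null and wild-type responses was passed by 0 of the 32 and 0 of the 30 genes (smallest adjusted p 0.35 and 0.41). Over all genes tested 0.0544% passed it as larger and 0.0204% as smaller. For Mki67 the change was -1.25 in wild-type tumours and the difference 0.78 ± 0.49, adjusted p = 0.504; for Ccnb1 the values were -0.50 and 0.96 ± 0.50, adjusted p = 0.446. The median difference over the G2 and mitosis genes was 0.79, and the standard errors of single genes were near 0.50.

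**Figure D3:**
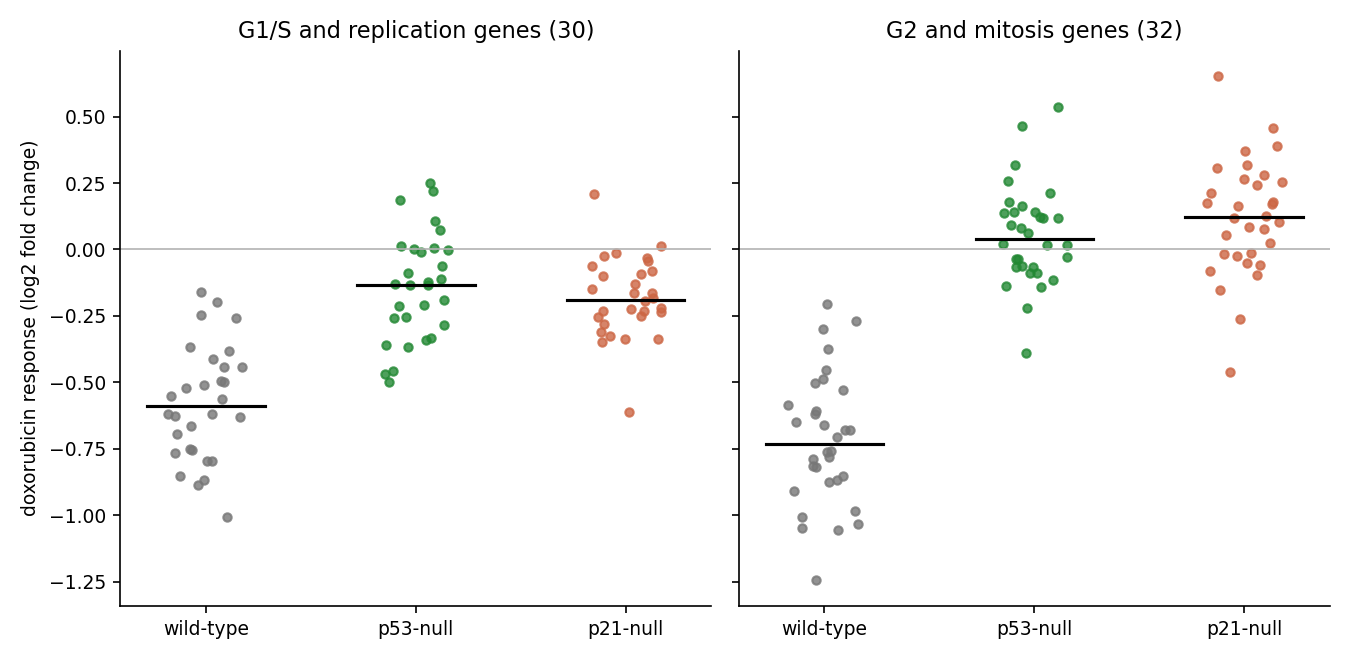
Doxorubicin response (log2 fold change, y axis) of each gene of the G1/S list (left, 30 genes) and the G2 and mitosis list (right, 32 genes) in wild-type, p53-null and p21-null tumours; each point is a gene and the line is the median. The medians of the G2 and mitosis list are -0.73, 0.04 and 0.12; the kit differs between wild-type and null tumours, and no single gene passed the test of the difference.

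Among the regulators upstream of these genes, few passed the test, against 5.61% of all genes tested that rose and 4.84% that fell. Among inhibitors of cyclin-dependent kinases and pocket proteins, 1 of 19 rose, which was Cdkn1a, and 1 fell, Cdkn1b, which encodes p27 (80.6 to 64.1; -0.33 ± 0.10, adjusted p = 0.0411). Among G1 cyclins and kinases 1 of 13 fell, Cdk4, the kinase partner of the D cyclins (658 to 483; -0.47 ± 0.14, adjusted p = 0.0438). Both calls were fragile: each was lost on leaving out any of 10 of the 14 mice in turn and with neither trended nor robust fitting. That of Cdk4 was also lost under median-of-ratios scaling and with no filter on low values. All 13 changes in that list were negative, between -0.47 and -0.12. Mouse m4533 had the lowest Cdk4 level of the treated mice, 279.

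Over all genes tested 5.61% rose and 4.84% fell, the background for each list of this paragraph. Of 30 DNA damage response and repair genes 0 rose and 2 fell (4 at an unadjusted p under 0.05 in either direction). The falls were Xrcc3, of homologous recombination (-0.49 ± 0.11, adjusted p = 0.0106), and Trp53bp1, which encodes the break-binding protein 53BP1 (-0.48 ± 0.12, adjusted p = 0.0152), a call lost without m4116 (adjusted p = 0.0534); Parp1 did not pass (-0.45 ± 0.15, adjusted p = 0.0669). The list held 4 falls without m4555 and 1 rise without m4533. Among drug targets, transporters and metabolic enzymes of doxorubicin, 2 of 19 rose. Abcb1b, a mouse P-glycoprotein gene whose product exports doxorubicin, was 1.77, 2.01, 2.22, 1.97 and 2.18 in the untreated mice and ran from 4.35 to 12.6 (median 7.63) in the treated mice. The groups did not overlap (1.52 ± 0.20, adjusted p = 1.02e-04); its change was 0.14 in p53-null tumours, and the difference did not pass (1.38 ± 0.33, adjusted p = 0.0574). Abcc3, another export pump, rose by 0.86 ± 0.26, adjusted p = 0.0487, a call that ended on leaving out any of 10 mice in turn. Top2b, a target of the drug, did not pass (-0.27 ± 0.11, adjusted p = 0.133). Of the NRF2 antioxidant genes 2 of 16 rose, Srxn1, sulfiredoxin (0.79 ± 0.16, adjusted p = 0.0046), and Nfe2l2, NRF2 itself (0.49 ± 0.11, adjusted p = 0.0128). Of the integrated stress and unfolded protein genes 0 of 15 rose and Trib3 fell (-0.43 ± 0.13, adjusted p = 0.0422). The Trib3 call was lost on leaving out any of 11 mice in turn, under median-of-ratios scaling and in the fit of all 6 groups.

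Interferon-stimulated genes made up the other large block. This set is switched on when interferon receptors signal through JAK kinases to STAT and IRF transcription factors, which bind the interferon-stimulated response element, and nucleic acid sensors are known to start the pathway. Of 34 such genes tested 32 rose, 0 fell and 2 did not pass, against the background of 5.61%. Their median change was 1.86, and in 30 of the 34 every treated mouse lay above every untreated mouse, against 3.23% of all genes tested. The list median lay from 1.22 to 2.38 in the treated mice, highest in mouse m4093 and lowest in mouse m4132, and from -0.27 to 0.27 in the untreated mice.

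Ifit3, an interferon-induced RNA-binding protein family member, was 14.5, 10.7, 11.5, 8.85 and 18.9 in the untreated mice and ran from 71.3 to 161 (median 119) in the treated mice. It rose more than any other member of the list (3.11 ± 0.20, adjusted p = 1.27e-07), though reads of Ifit3 and its near-identical copy Ifit3b (2.75 ± 0.24, adjusted p = 1.71e-06) can be split between them. Ifit1 rose from 9.81 to 73.8 (2.78 ± 0.22, adjusted p = 9.86e-07), Mx1, an antiviral dynamin-like GTPase, from 3.11 to 27.5 (2.76 ± 0.19, adjusted p = 1.58e-07), and Igtp, an immunity-related GTPase, from 14.4 to 61.1 (1.99 ± 0.13, adjusted p = 1.27e-07). Each of them rose in all 9 treated mice without overlap.

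The factors that carry the signal rose too, 10 of 16 of the JAK, STAT and IRF list, against 5.61% of all genes tested. Irf7, the factor that amplifies type I interferon, was 76.5, 29.3, 50.9, 38.9 and 60.3 in the untreated mice and ran from 199 to 411 (median 352) in the treated mice (2.68 ± 0.22, adjusted p = 1.30e-06). Stat2 rose from 12.7 to 35.9 (1.41 ± 0.16, adjusted p = 2.84e-05) and Usp18, the protease that damps receptor signalling, from 15.1 to 78 (2.27 ± 0.23, adjusted p = 7.18e-06). Of the nucleic acid sensors and their adaptors 8 of 18 rose, led by Zbp1, a sensor of Z-form nucleic acid (18.8 to 90.4; 2.18 ± 0.16, adjusted p = 4.60e-07), Dhx58 and Ifih1, RIG-I-like RNA sensors (1.98 ± 0.17 and 1.24 ± 0.15), and Trex1, an exonuclease of cytosolic DNA (1.05 ± 0.11). The ligands themselves were at the floor of the tables: of 12 ligand and receptor genes 5 were tested, all receptor subunits, and 0 were called by limma, 2 at an unadjusted p under 0.05 and 1 as a fall without m4555 or m4380 (Ifnlr1 -0.49 ± 0.16, adjusted p = 0.0564; Ifnar2 0.25 ± 0.11, adjusted p = 0.145). The highest value of Ifnb1 in any tumour was 0.551 among the treated and 0.165 among the untreated tumours, and of Ifng 0.328 and 0.27.

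The response element, in its simplest form GAAA, 2 bases of any kind and GAAA again, on either strand, was counted in the same promoter windows. It occurred in 415 of 10696 (3.88%) genes tested, in 88 of 587 (15%) genes that rose, in 57 of 271 (21%) of those that rose by at least 2-fold and in 11 of 508 (2.17%) genes that fell. It occurred in 17 of 27 (63%) of the interferon-stimulated genes with a window and in 1 of 47 (2.13%) p53 target genes. A gene counted where any of its listed windows held a match, and 2977 of the genes tested had no window. Stretches of 4 windows picked because they hold a match, from genes with large rises, follow with every match in capitals, for Ifit3 (plus strand, chr19:34583343-34583446), Ifit1 (plus, chr19:34640755-34640843), Cxcl10 (minus, chr5:92349063-92349132) and Igtp (plus, chr11:58199492-58199561):
Ifit3: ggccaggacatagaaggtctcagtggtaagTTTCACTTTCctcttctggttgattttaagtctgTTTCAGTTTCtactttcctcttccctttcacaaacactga
Ifit1: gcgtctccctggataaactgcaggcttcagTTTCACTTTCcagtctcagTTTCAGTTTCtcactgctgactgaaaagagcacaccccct
Cxcl10: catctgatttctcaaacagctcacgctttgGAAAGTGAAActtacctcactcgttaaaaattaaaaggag
Igtp: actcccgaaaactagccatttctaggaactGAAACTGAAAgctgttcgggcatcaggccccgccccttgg
In Ifit3 and Ifit1 the element is read on the other strand, so that the plus strand shows TTTC, 2 bases and TTTC, and it occurs 2 times. The same letters stood in the windows of the sensor Ifih1, the factor Stat2 and the antigen-presentation gene B2m:
Ifih1: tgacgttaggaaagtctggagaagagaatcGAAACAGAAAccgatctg
Stat2: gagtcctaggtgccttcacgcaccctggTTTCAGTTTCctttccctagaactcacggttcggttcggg
B2m: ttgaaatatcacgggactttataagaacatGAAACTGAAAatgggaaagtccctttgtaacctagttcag
These 3 lie at chr2:62646206-62646253 (minus strand), chr10:128270248-128270315 (plus) and chr2:122147518-122147587 (plus). Their log2 fold changes were 1.24 ± 0.15, 1.41 ± 0.16 and 1.41 ± 0.16.

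No interferon-stimulated gene passed the test of a difference between genotypes. The median change of the 34 interferon-stimulated genes was 1.66 in p53-null and 1.29 in wild-type tumours, and 0 of the 34 passed the test of the difference against either (smallest adjusted p 0.423 and 0.328). Few genes of any kind passed: 0.538% as larger and 0.0141% as smaller against p53-null tumours, and 0.0544% and 0.0204% against wild-type tumours. A count of 0 therefore does not show that the responses were the same. Ifit3 rose by 2.36 in p53-null tumours (difference 0.75 ± 0.44, adjusted p = 0.515) and 2.25 in wild-type tumours (difference 0.86 ± 0.43, adjusted p = 0.427). Irf7 rose by 2.11 and 1.97 (differences 0.57 ± 0.44, adjusted p = 0.625 and 0.71 ± 0.47, adjusted p = 0.526).

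Antigen presentation by MHC class I followed. Of 16 genes 13 rose and 0 fell, against 5.61% of all genes tested that rose and 4.84% that fell. B2m, the light chain of every class I molecule, was 1129.7, 1672, 928, 1011 and 1103 in the untreated mice and ran from 2349 to 4014 (median 3159) in the treated mice (1.41 ± 0.16, adjusted p = 2.26e-05). Tap1, which carries peptides into the endoplasmic reticulum (38.1 to 108; 1.48 ± 0.14, adjusted p = 3.24e-06), Psmb8, an immunoproteasome subunit (75.7 to 179; 1.24 ± 0.16, adjusted p = 7.08e-05), and the heavy chain H2-D1 (522 to 1160.3; 1.15 ± 0.16, adjusted p = 2.06e-04) rose as well; heavy-chain genes are near-identical and can share reads. Of 9 class II genes 1 rose, Ctss, the cathepsin that trims the invariant chain (1.42 ± 0.25, adjusted p = 0.00195), and H2-Eb1 did not pass (0.53 ± 0.40, adjusted p = 0.418). With 9 genes, 1 rise does not set the class II list apart from that background.

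Chemokine genes rose too, over a background of 5.61% of all genes tested rising and 4.84% falling. Of 13 genes for ligands and receptors that draw T and NK cells, 8 rose and 0 fell. Cxcl10 was 5.78, 9.45, 4.1, 5.09 and 7.25 in the untreated mice and ran from 34.2 to 93 (median 45.3) in the treated mice, highest in mouse m4093 (2.76 ± 0.21, adjusted p = 5.99e-07). Ccl5 went from 9.74 to 43.4 (2.0 ± 0.25, adjusted p = 6.83e-05), Ccl4 from 3.84 to 16.8 and Ccl3 from 3.43 to 13.2 (1.82 ± 0.20 and 1.62 ± 0.19). Of 19 genes of the myeloid chemokine list 11 rose and 0 fell, led by Ccl12 (21.8 to 89.8; 2.05 ± 0.24, adjusted p = 4.20e-05), Ccl7 (1.73 ± 0.25) and Ccl2 (1.42 ± 0.24), which attract monocytes. The count of 11 was 5 without m4539 and 7 without m4116, m4383, m4536, m4132 or m4534. Among checkpoint ligands and receptors 5 of 11 rose: Lgals9, galectin-9 (77.8 to 222; 1.49 ± 0.15, adjusted p = 6.83e-06), Cd80 (1.34 ± 0.19), Cd274, which encodes PD-L1 (1.18 to 4.51; 1.29 ± 0.22, adjusted p = 0.00126), Cd86 (0.84 ± 0.21) and Havcr2 (0.78 ± 0.19). The Cd86 call was lost without untreated mouse m4116 or m4536.

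Some markers of immune cells rose, by amounts that varied widely between treated mice. The 2 tumours of treated mouse m4439, averaged here, also differed. Their list medians were 1.22 and 0.15 for macrophage markers and 0.90 and -0.80 for neutrophil markers. In the 2 tumours of untreated m4116 they were 0.11 and 0.31, and -0.04 and 0.49. For mice with 1 tumour, spread between mice and spread between tumours cannot be told apart. In bulk tissue, more cells of a type and more RNA per cell cannot be told apart. The background is 5.61% of all genes tested rising and 4.84% falling. Of 15 macrophage markers 7 rose and 0 fell: Cd68, a lysosomal glycoprotein of macrophages, was 59.5, 64.3, 44.6, 38.6 and 49.3 in the untreated mice and ran from 86.2 to 220.3 (median 116) in the treated mice (1.28 ± 0.20, adjusted p = 5.44e-04), and Fcgr1 (1.61 ± 0.22, adjusted p = 1.72e-04) and C1qa (1.21 ± 0.17, adjusted p = 1.73e-04) rose, while Csf1r (0.44 ± 0.25, adjusted p = 0.274) and Mrc1 (0.47 ± 0.24, adjusted p = 0.218) did not pass. The median over the 15 markers ran from 0.13 to 1.62 in the treated mice, lowest in mice m4168 and m4093 and highest in m4380, m4183, m4533 and m4577, and from -0.34 to 0.36 in the untreated mice, so the groups overlapped. Mice m4093 and m4168, with the lowest macrophage medians, had interferon medians of 2.38 and 1.93 and mouse m4132, with the lowest interferon median, a macrophage median of 0.59. The part of immune cells in the interferon block was not tested.

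Genes of the engulfment and lysosome machinery, much of which macrophages use, rose in part, over a background of 5.61% of all genes tested rising. Of 24 lysosome and cathepsin genes 11 rose and 0 fell, among them Npc2, a cholesterol carrier (0.61 ± 0.09, adjusted p = 3.77e-04), and the proteases Ctsd (859 to 1517; 0.80 ± 0.12, adjusted p = 4.92e-04), Lgmn (0.96 ± 0.16) and Ctsb (0.83 ± 0.14). Of 18 complement C1q, TAM receptor and engulfment genes 6 rose, including all 3 C1q chains and Pros1, a bridging ligand (0.79 ± 0.13, adjusted p = 0.00113). The lysosome list median ran from 0.22 to 0.93 in the treated mice, highest in mice m4380 and m4533.

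Of 10 T cell markers tested 5 rose (8 at an unadjusted p under 0.05). The background for the lists of this paragraph is 5.61% of all genes tested rising. At an unadjusted p under 0.05 there were 3650 of the 13673 genes tested, in either direction. The count of 5 was 1 without m4116, m4383, m4536 or m4577, 2 without m4539 or m4534 and 3 without m4555, m4093, m4183 or m4533. Levels were low: Cd3d was 1.03, 1.62, 0.483, 0.998 and 1.34 in the untreated mice and ran from 1.39 to 6.24 (median 3.73) in the treated mice, with overlap (1.08 ± 0.23, adjusted p = 0.0069). Cd8a (0.76 ± 0.21, adjusted p = 0.0301) and Cd3e (0.69 ± 0.20, adjusted p = 0.0373) rose by less, calls that ended on leaving out any of 5 and of 10 mice in turn. Of 9 NK and cytotoxic markers 3 rose (8 at an unadjusted p under 0.05): Nkg7 (1.43 ± 0.28, adjusted p = 0.00355), Klrk1 (1.20 ± 0.24, adjusted p = 0.00491) and Klrd1 (1.02 ± 0.30, adjusted p = 0.0378). The Klrd1 call ended on leaving out any of 7 mice in turn, under pseudocount 5 and with no filter. The NK list held 5 rises without m4383 and 6 without m4168. Of 3 B and plasma cell markers tested 0 were called (1 at an unadjusted p under 0.05, and 1 called without m4539 or m4168), and of 6 dendritic cell markers 2 rose, Bst2 (2.10 ± 0.25, adjusted p = 4.18e-05), which is also interferon-stimulated, and Itgax (0.98 ± 0.23, adjusted p = 0.0132); Flt3, Xcr1, Clec9a and Siglech were too low to test, with no tumour above 1.449.

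The neutrophil gene S100a9 was high in a few mice. S100a9, a calcium-binding protein abundant in neutrophils, was 63.7, 16.2, 96.1, 20.2 and 48.4 in the untreated mice and ran from 66.2 to 2076 (median 209) in the treated mice, with 2076 in mouse m4132, 772 in m4533 and 656 in m4534. The groups overlapped (2.71 ± 0.76, adjusted p = 0.0332). The call was lost on leaving out any of 6 mice in turn, with separate tumours and with the random block. S100a9 was the 1 call among 7 neutrophil markers tested, of which 2 were called without m4380. Among all genes tested 5.61% rose, and 1 call of 7 does not set the list apart from that share. All 7 were at an unadjusted p under 0.05, with a median change of 1.11 and a lowest change of 0.67. Ly6g, a defining marker, reached at most 1.321 in a treated and 0.106 in an untreated tumour.

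**Figure D4:**
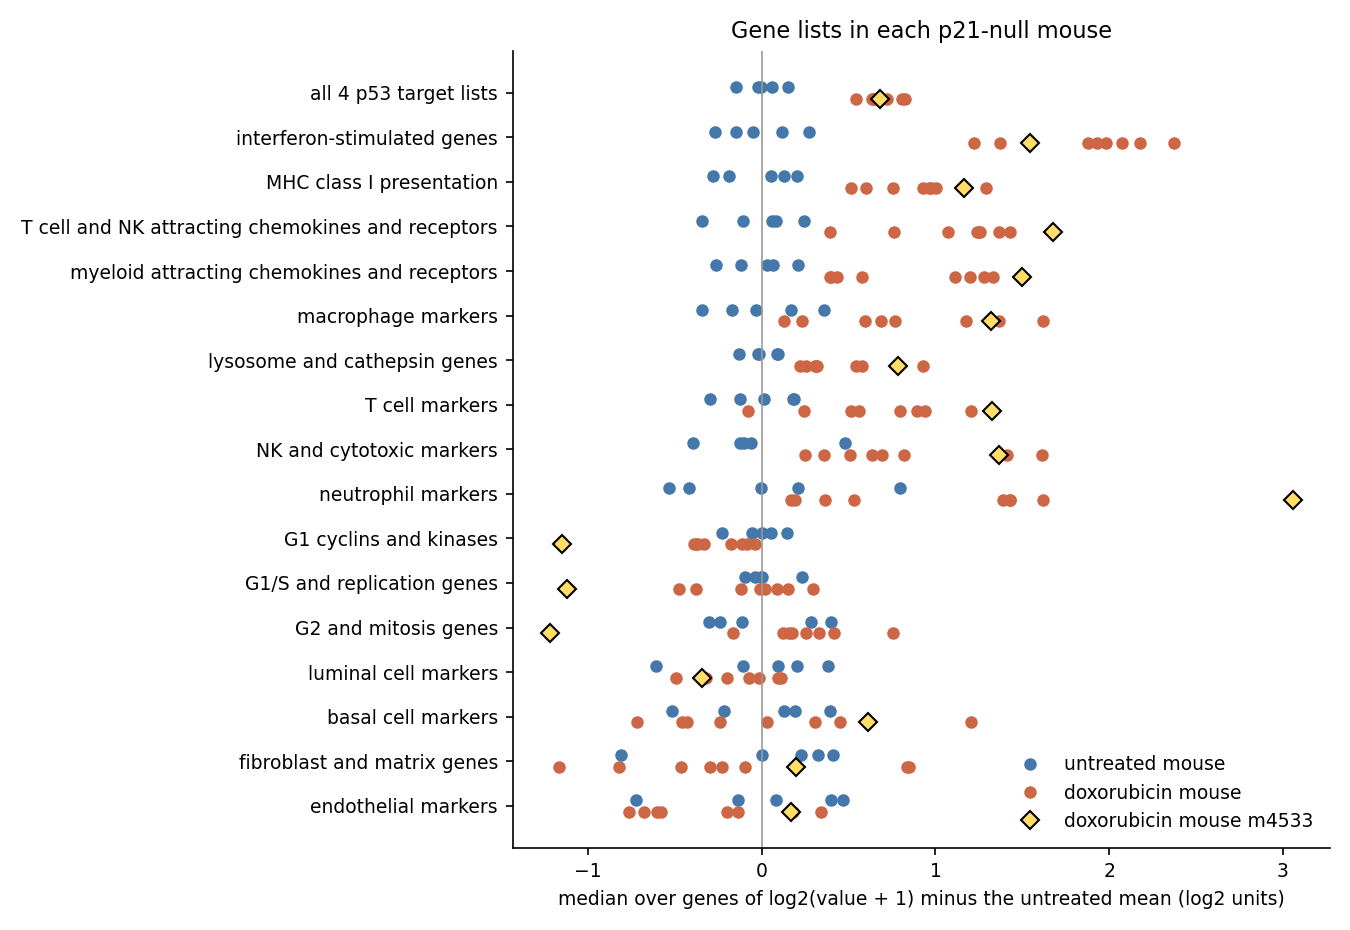
Median over the tested genes of each list of log2(value + 1) minus the untreated mean (x axis, log2 units) in each p21-null mouse; blue points are the 5 untreated mice, orange points 8 treated mice and the yellow diamond treated mouse m4533. The p53 target, interferon, MHC class I, lysosome and both chemokine lists separate all treated from all untreated mice. Marker lists of immune cells overlap, and mouse m4533 stands at -1.22 for G2 and mitosis genes and 3.06 for neutrophil markers.

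Transcripts of red blood cells made up 5 of the 12 largest falls picked by the naming rule. Hbb-bs, an adult beta-globin, was 5081, 291, 1029, 925 and 1210.3 in the untreated mice and ran from 0.305 to 17.1 (median 3.58) in the treated mice (-8.03 ± 0.71, adjusted p = 3.72e-06). Hbb-bt (-7.49 ± 0.45, adjusted p = 1.21e-07), Hba-a2 (-7.24 ± 0.60, adjusted p = 1.93e-06) and Hba-a1 (-5.42 ± 0.62, adjusted p = 4.01e-05) followed, all near-identical in pairs, so that reads may be split between copies. Alas2, the erythroid enzyme that starts haem synthesis, fell from 14.3 to 1.25 (-2.43 ± 0.36, adjusted p = 4.12e-04). In all 5 every treated mouse lay below every untreated mouse, against 1.23% of all genes tested, and the sixth gene tested, Bpgm, did not pass (-0.32 ± 0.13, adjusted p = 0.129). Untreated mouse m4116 was highest, at 5081 for Hbb-bs. The change of Hbb-bs was -4.49 in p53-null and -5.84 in wild-type tumours, and neither difference passed (-3.54 ± 1.45, adjusted p = 0.419; -2.20 ± 1.14, adjusted p = 0.442).

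Luminal, stromal and muscle markers gave no calls. The background for these lists and the basal list is 5.61% of all genes tested rising and 4.84% falling. Of 15 luminal markers, 15 fibroblast and matrix genes, 12 endothelial markers, 10 adipocyte markers and 10 skeletal muscle markers, 0 rose and 0 fell by limma; at an unadjusted p under 0.05 there were 0 luminal, 1 fibroblast, 0 endothelial, 5 adipocyte and 0 muscle genes. Without untreated mouse m4383, whose adipocyte median was the highest of the untreated mice (1.14), 4 adipocyte markers rose, and 3 rose without m4168; without m4183 or m4380, 1 fibroblast gene fell. Krt18 changed by -0.33 ± 0.17, adjusted p = 0.231, Pdgfra by -0.75 ± 0.27, adjusted p = 0.0863 and Emcn by -0.43 ± 0.21, adjusted p = 0.199. Muscle transcripts varied widely within both groups, with list medians from -2.47 to 2.79 in untreated and from -2.76 to 1.11 in treated mice. Of 10 basal markers Krt14 alone rose, from 751 to 1662 (1.02 ± 0.31, adjusted p = 0.0471). The Krt14 call was lost on leaving out any of 11 mice in turn. It was also lost with no filter, in the fit of all 6 groups (adjusted p = 0.177) and with neither trended nor robust fitting. Krt5 did not pass (0.72 ± 0.23, adjusted p = 0.0594). Krt15, a keratin of basal epithelium, was among the 12 largest rises (36.8 to 263; 2.81 ± 0.54, adjusted p = 0.00376), with overlapping groups: 41.9, 79, 37.5, 15.6 and 10.2 untreated and from 75.2 to 675 (median 252) treated. Its change in p53-null tumours was -0.73, and the difference did not pass (3.54 ± 1.08, adjusted p = 0.243).

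Of 22 Wnt ligands, receptors and targets 0 rose and 2 fell, against 5.61% and 4.84% of all genes tested. Without m4383, m4168, m4380 or m4439, 1 rose. With all mice 9 of the list changed at an unadjusted p under 0.05. Rnf43, a membrane ubiquitin ligase that removes Frizzled receptors and is itself a Wnt target, was 44.7, 40.1, 36.8, 36.9 and 40.2 in the untreated mice and ran from 18.5 to 31.5 (median 23) in the treated mice. The groups did not overlap (-0.69 ± 0.12, adjusted p = 0.00151). Fzd2, a Frizzled receptor, fell from 12.9 to 7.7 (-0.67 ± 0.14, adjusted p = 0.00472), while Axin2, the standard target of the pathway named here after its values were seen, did not pass (-0.28 ± 0.14, adjusted p = 0.205). The largest falls outside red blood cell genes were Snorc, a proteoglycan of cartilage (197 to 54.9; -2.29 ± 0.66, adjusted p = 0.0375), Lbhd2 (-2.03 ± 0.38), Capn6 (-1.91 ± 0.37), Meox1, a homeobox factor (-1.88 ± 0.31), Efhd1 (-1.78 ± 0.33), Col9a1, a collagen of cartilage (-1.77 ± 0.36), and Lrrn1 (-1.71 ± 0.42). The call of Snorc was lost on leaving out any of 8 mice in turn and that of Lrrn1 without untreated mouse m4116. Capn6 and Efhd1 were lower in every treated than in every untreated mouse, the other 5 overlapped, and no difference from p53-null tumours passed for these 7.

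Death and secretory genes were mixed, over a background of 5.61% of all genes tested rising and 4.84% falling. Of 18 caspases and lytic death effectors 5 rose, including Gsdmd, the pore protein of pyroptosis (0.84 ± 0.15, adjusted p = 0.00143), Casp4, the mouse caspase-11 gene (1.27 ± 0.23, adjusted p = 0.00176), Mlkl, the effector of necroptosis (0.82 ± 0.16, adjusted p = 0.00448), and Casp1 (0.73 ± 0.15, adjusted p = 0.00623), while Casp6, an executioner-type caspase, fell (-0.36 ± 0.10, adjusted p = 0.0286). The Casp6 call ended without m4116, m4536, m4539, m4534 or m4577, and the list held 2 falls without m4380. Of 25 genes of the senescence-associated secretory list 6 rose and 1 fell. Lif, a cytokine of the interleukin-6 family (0.88 ± 0.16, adjusted p = 0.00176), and the metalloproteinases Mmp12 (20.9 to 90.6; 1.83 ± 0.40, adjusted p = 0.00823) and Mmp13 (1.12 ± 0.24, adjusted p = 0.00757) rose beside Ccl2, and Vegfa, named after its values were seen, fell from 159.6 to 53 (-1.47 ± 0.37, adjusted p = 0.0187), a call that ended without untreated mouse m4116, m4536 or m4539. Il6 was too low to test, at most 1.068 in any tumour. Of 14 immediate early and heat shock genes 0 rose and 3 fell, Nr4a1 (-0.70 ± 0.16, adjusted p = 0.00984), Egr2 (-0.96 ± 0.23, adjusted p = 0.013) and Jun (-0.55 ± 0.16, adjusted p = 0.0348); the Jun call ended on leaving out any of 7 mice in turn. Of 11 milk protein genes 0 were called (3 at an unadjusted p under 0.05), while 1 rose without m4383, m4555, m4093, m4132 or m4577, 2 rose without m4439 and 2 fell without m4534, with Spp1 and Ltf highest (1.66 ± 0.51, adjusted p = 0.0526; 1.46 ± 0.45, adjusted p = 0.0511).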

How the data were processed

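The authors deposited, for each tumour, 1 table of gene-level TPM. Per the submitters' processing notes these came from RSEM on mm10, and per the file names with Ensembl gene models of GRCm38; the aligner and the RSEM version were not named there. Per the labels' protocols tumours were snap-frozen and pulverised and their RNA taken up in Trizol. No 2 tables were identical (0 pairs). Of 43346 identifiers 42462 matched GENCODE M21 for symbols and types. TPM were rescaled to 21461 nuclear protein-coding genes, and log2(value + 1) was averaged over tumours of the same title number. Genes reaching a value of 1 in 4 or more mice were tested with limma 3.58.1 (R 4.3.3, trended and robust empirical Bayes) in the p21-null groups alone (9 against 5 mice, 12 residual degrees of freedom); each response difference was an interaction contrast over 4 groups. The fits were also run on simulated data in which genes varied independently and tumours of the same mouse varied alike, unlike these data. That run is no check of the calls made here. Each limma p-value sets a difference of means against the spread between these mice, with the variance moderated across genes. Antisense and overlapping genes cannot be separated, since the kit of the null tumours does not mark strand.

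The genes named are Cdkn1a, Trp53 and Wnt1, the 12 largest called rises and falls with a group mean of at least 5 (without predicted genes, pseudogenes or immune receptor segments), from each list the 4 members of lowest adjusted p at most, the 6 largest called differences against each genotype, and defining markers; Gadd45a, Gls2, Casp6, Havcr2, Bpgm, Cdc20, the neighbours of Cdkn1a and those said to be so were named after their values were seen. The 42 lists and the members were chosen with earlier results of these data known. A few genes are not reported here. Promoter windows came from RefSeq (GRCm38.p6). Scale, pseudocount, filter, fit and each mouse were varied.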

Additional observations from a re-analysis of the deposited data

Results flagged for a closer look

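Of 448 sets of values of named genes and list medians, 30 had a mouse far from the rest of its group by Dixon's criterion, where chance gives about 1 in 20; 12 of the 30 were treated mouse m4533. Gene levels are on the protein-coding scale. In untreated mouse m4555 this held for Trp53 at 95.2 (the others 119.6 to 128), Sesn2 at 7.18 (the others 10.5 to 12) and Pdgfrb at 7.1 (the others 14.1 to 16.6). In untreated mouse m4116 this held for Cdk4 at 596 (the others 661 to 681) and Ifih1 at 12.9 (the others 8.8 to 9.65). In untreated mouse m4383 this held for Pmaip1 at 2.34 (the others 5.02 to 6.53), Klrb1c at 0.869 (the others 0.392 to 0.494) and Retn at 9.13 (the others 0.558 to 1.13). In untreated mouse m4536 this held for Pdgfra at 11 (the others 6.15 to 7.15). In treated mouse m4533 this held for Trp53 at 66.9 (the others 92.3 to 114), Cdk4 at 279 (the others 409.9 to 594), Cdk2 at 16.8 (the others 27.6 to 39.5), E2f3 at 4.71 (the others 8.28 to 12.9), Uhrf1 at 14.3 (the others 31 to 61.8), Mcm2 at 13.1 (the others 26 to 49.1), Mki67 at 13.1 (the others 29.9 to 59.3), Ccnb1 at 25.1 (the others 73.4 to 173) and Psat1 at 19.8 (the others 44.3 to 83.4). In treated mouse m4093 this held for Cxcl10 at 93 (the others 34.2 to 52.7) and Cbr3 at 26.5 (the others 35.9 to 43.8). In treated mouse m4380 this held for Zmat3 at 31.4 (the others 17 to 22.7), Mmp13 at 24.8 (the others 7.09 to 13) and Mmp8 at 7.9 (the others 0.694 to 2.49). In treated mouse m4534 this held for Csn2 at 26.7 (the others 0.0927 to 3.68). In treated mouse m4439 this held for Oxtr at 66.3 (the others 7.5 to 23.1). In treated mouse m4183 this held for Cd79b at 9.81 (the others 1.82 to 4.31). For list medians in log2 units it held for the median of the list G1 cyclins and kinases in mouse m4533 at -1.15 (the others -0.39 to -0.04), the median of the list G2 and mitosis genes in mouse m4533 at -1.22 (the others -0.16 to 0.76), the median of the list BCL2 family and inhibitors of apoptosis in mouse m4380 at 0.40 (the others -0.08 to 0.15) and the median of the list neutrophil markers in mouse m4533 at 3.06 (the others 0.17 to 1.62). The cause of these values was not tested.

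Among the genes named by rule, the test of the difference between the p21-null and p53-null responses was passed by 19 genes, with differences in log2 units (p21-null minus p53-null) for Sncg (4.89), Cox6b2 (4.58), Gdf15 (2.70), Robo3 (2.58), Ccng1 (1.71), Zmat3 (1.40), Bax (1.60), Eda2r (2.36), Ei24 (1.02), Bbc3 (1.91), Rps27l (1.06), Btg2 (1.45), Psrc1 (1.75), Cpt1c (2.17), Sesn2 (1.08), Pmaip1 (1.57), Hmga1b (4.03), Plcd4 (2.37) and Rab44 (1.57). Against wild-type tumours, where genotype and kit cannot be told apart, it was passed by Rab44 (1.73) and Hist1h2bc (1.08).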

How the results depend on the processing

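No named gene that was called changed sign under the settings tried. Some calls ended under settings other than leaving out a mouse, beside those given above. They were Jun and Cd3e in the fit of all 6 groups, and Jun, Snorc and Abcc3 with no filter. Abcc3 also ended under pseudocount 0.1 and with neither trended nor robust fitting. Falls outnumbered rises with separate tumours (813 rises), with the random block and without m4555 (655 against 869), m4183 (721 against 832) or m4380 (750 against 1014). Some list medians turned sign without single mice, the widest for milk protein genes, from -0.26 to 0.11 without m4533. Rises numbered 566 to 857 with each mouse left out and 628 to 1113 under the other settings, the highest under median-of-ratios scaling, which moved the median of all genes from -0.10 to -0.02 and the share of rises among calls from 53.7% to 62.9%. Falls numbered 241 to 1014 with each mouse left out and 1066 with all 16 tumours kept separate, where rises were 43.3% of calls. A random block for the title number gave 779 rises and 910 falls. The p53 target lists held 31 to 35 rises, and 1 fall, Gls2, under pseudocount 5, in the fit of all 6 groups, with separate tumours and with the random block. Interferon-stimulated rises were 31 or 32. G2 and mitosis rises ranged from 0 to 3, the 3 without mouse m4533. Responses larger than in p53-null tumours numbered 60 to 85 with each mouse left out and 74 to 94 otherwise. Smaller ones numbered 1 with TPM as deposited, 9 in the fit of all 6 groups, 1 with separate tumours, 0 under pseudocount 5 and 0 to 10 with each mouse left out. Against wild-type tumours, larger responses numbered 97 with TPM as deposited, 16 with separate tumours, 35 under pseudocount 5 and 3 to 21 with each mouse left out; smaller ones numbered 6, 2 to 4 with each mouse left out, and 8 under pseudocount 5. Leaving out mice for the response differences was chosen after seeing the data. The cause of these changes was not tested. No paired analysis was possible because treated and untreated groups share no mouse numbers. Depth is unknown from TPM, which limits what can be said of genes near 0.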
